A study of Drosophila melanogaster with 2 samples.

Results

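The mitochondrial ribosomal protein genes are the nuclear genes for the proteins of the mitochondrial ribosome. They were chosen by name alone, as the protein-coding genes of the dm6 annotation whose FlyBase symbol begins with mRpL (named for the large subunit) or mRpS (named for the small subunit) followed by a number. There were 73 of them among 13945 protein-coding genes on 6 chromosome arms, 47 with an mRpL and 26 with an mRpS symbol. This left 13872 other protein-coding genes for comparison. No measured value enters this rule, but the family was picked for description with earlier results of these data known.

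The data were chromatin immunoprecipitation sequencing (ChIP-seq) peak lists for E(spl)m3-HLH in Drosophila melanogaster. The only group, E(spl)m3-GFP ChIP, came from a stably transgenic line that makes E(spl)m3 with green fluorescent protein (GFP) fused to its C terminus, collected as whole embryos of 0 to 24 h with both sexes pooled. Per the labels, the precipitation used an antibody to GFP, while their antibody field names E(spl)m3-HLH itself, and the 2 biological replicates are numbered 2 and 3. The labels do not say which sequences drive the transgene or whether the native protein is made beside it. A whole embryo mixes many cell types, so a site occupied in few cells and a site occupied weakly in many cannot be told apart. The authors' lists were made against a control file, which was not used here, and no untreated group was analysed.

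Mitochondrial ribosomes translate the few mRNAs of the mitochondrial genome, which encode core subunits of the respiratory chain and ATP synthase. All of their proteins named here are encoded in the nucleus, made in the cytosol and imported, and most cell types need them. The Enhancer of split proteins, of which E(spl)m3-HLH is one, are transcriptional repressors made in cells with active Notch signalling; they bind DNA through a bHLH domain and recruit the corepressor Groucho. Many fly genes start back to back with a neighbour on the other strand, and such a pair shares 1 short divergent promoter.

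Sequences under some of the strongest of these peaks are shown because the peaks lay in short AT-rich stretches between such pairs. Each is read 5′ to 3′ on the strand of the mitochondrial ribosomal protein gene, from the dm6 assembly, with 50 bp to each side of the summit, the base where the authors' caller put the peak's maximum. Capitals mark a match, on either strand, to any of 10 short motifs that are spelled out with their shares further on. The first line is longer and gives the whole 258 bp from the start site of Art3 to that of mRpS10, chr3R:15229408-15229665, plus strand, which held the strongest of these peaks. The others are mRpS23 at chr2L:13835400-13835500, minus strand, mRpL24 at chr2L:4945457-4945557, minus strand, and mRpL20 at chr3L:13018162-13018262, minus strand, also among the strongest. The last, mRpL19 at chr3R:8674035-8674135, plus strand, is shown because it was the only one of these summit windows with a full DRE, and was chosen after its values were seen.
mRpS10 to Art3 gap: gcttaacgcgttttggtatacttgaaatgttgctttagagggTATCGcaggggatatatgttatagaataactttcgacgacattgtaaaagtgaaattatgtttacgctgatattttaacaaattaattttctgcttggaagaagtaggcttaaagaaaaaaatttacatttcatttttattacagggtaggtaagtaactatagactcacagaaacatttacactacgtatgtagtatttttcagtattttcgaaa
mRpS23: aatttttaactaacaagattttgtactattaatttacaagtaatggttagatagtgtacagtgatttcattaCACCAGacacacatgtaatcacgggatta
mRpL24: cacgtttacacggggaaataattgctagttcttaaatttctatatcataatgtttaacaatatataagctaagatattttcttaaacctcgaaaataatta
mRpL20: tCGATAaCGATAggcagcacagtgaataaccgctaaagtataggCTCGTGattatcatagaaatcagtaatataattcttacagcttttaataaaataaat
mRpL19: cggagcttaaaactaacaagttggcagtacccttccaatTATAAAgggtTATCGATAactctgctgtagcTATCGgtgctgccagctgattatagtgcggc

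More of these genes than of other protein-coding genes had a peak at a start site in the strictest list. In the thresholded list, the authors' 5701 peaks that passed the irreproducible discovery rate (IDR) procedure, 39 of 73 members (53.4%, 95% Wilson interval 42.1 to 64.4) had a summit within 1 kb of a start site. Of the other protein-coding genes, 26.6% did (3695 of 13872, interval 25.9 to 27.4). The difference was 26.8 percentage points. It is a description with no test, since genes that share a peak are not independent, and the interval covers only the number of genes. With each summit given only to the gene of its nearest start site, 18 members (24.7%) kept one, against 19.3% of other genes, a difference of 5.37 points.

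The looser lists gave higher shares in both sets of genes. The pooled list, 25791 peaks called on both replicates' alignments together, had a summit for 55 of the 73 members (75.3%), against 55.0% of the other genes. In the list of replicate 2, with 30000 peaks, 60 members (82.2%) had one, against 59.8% of the others. In the list of replicate 3, with 24781 peaks, 49 members (67.1%) did, against 52.3%. The members' share stood above that of the other genes in each list, by 14.8 points in that of replicate 3. Cut to the 5701 strongest peaks, replicate 2 alone gave 43 members (58.9%), against 27.3% of the others, and replicate 3 alone gave 35 (47.9%), against 25.3%.

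**Figure D1:**
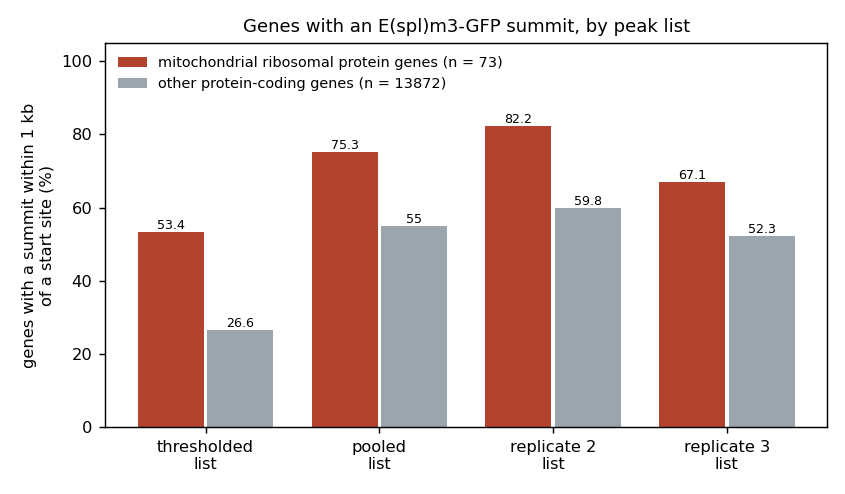
Share of genes (%, vertical axis) with a summit within 1 kb of a start site in each of 4 deposited peak lists, for 73 mitochondrial ribosomal protein genes (left bar of each pair) and 13872 other protein-coding genes (right bar). The left bar is the taller in every list, from 53.4% against 26.6% in the thresholded list to 82.2% against 59.8% in that of replicate 2.

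A summit was present in both replicates' lists for 48 of 73 members (65.8%), against 46.2% of the other genes. For 12 members it was in that of replicate 2 alone, for 1 in that of replicate 3 alone, and for 12 in neither. Other genes were not split in this way, so these 3 counts are not read as a trait of the members. Of the 13872 other genes, 8300 (59.8%) had a summit in the list of replicate 2 and 7259 (52.3%) in that of replicate 3. In both lists it was 6412. The list of replicate 2 is also the longer, with 30000 peaks against 24781. All 39 members with a thresholded summit had one within 1 kb in both replicates, as had 3673 of 3695 other genes with a thresholded summit. For 39 members the summit of replicate 2 lay within 100 bp of the thresholded one, and for 37 that of replicate 3 did, at median offsets of 7 bp and 13 bp. The exceptions in replicate 3 were mRpL11, 151 bp away, and mRpL2, 237 bp away. The thresholded list was made from these same replicates, so part of this follows from how it was built.

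Most members start back to back with another gene. A protein-coding neighbour on the other strand started no more than 1 kb upstream for 58 of 73 members (79.5%), against 36.1% of other protein-coding genes (5009 of 13872). The gap between the 2 start sites had a median of 283 bp in members, from 20 to 793 bp, and of 297 bp in other genes. This is a property of the annotation and of no peak list.

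Nearly all peaks of these genes belonged to that arrangement. Of the 58 members with a divergent neighbour, 37 (63.8%, interval 50.9 to 74.9) had a thresholded summit, against 46% of the 5009 other genes so arranged. Of the 15 members with no such neighbour, 2 did (13.3%, interval 3.74 to 37.9), against 15.7% of 8863 others. The difference from other genes was thus 17.8 points within the divergent genes and -2.38 points outside them, against 26.8 over all. The value outside them rests on 15 genes and changed sign, to 1.51 points when only gaps up to 500 bp counted as divergent, to 2.52 with 1 outermost start site per gene, and to 5.1 and 3.76 with replicate 3 alone and replicate 2 alone. With the 2850 strongest peaks of the thresholded list, the difference within divergent genes was 3.89 points (32.8% against 28.9%). With replicate 3 alone, cut to as many peaks as the thresholded list, it was 11.4 points (55.2% against 43.8%), and with replicate 2 alone 22.1 points (69% against 46.8%). In the whole pooled list the divergent members stood at 82.8%, against 75.1%, in the whole list of replicate 2 at 87.9%, against 79.5%, and in that of replicate 3 at 74.1%, against 69.8%. The size of the difference within divergent genes thus depended on the replicate and on how many peaks a list held.

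Among the divergent members, a division by gap was made after the values were seen. Of 40 members with a gap of 101 to 1000 bp, 29 (72.5%) had a thresholded summit, against 47.4% of 4158 other genes with such gaps. Of 18 members with a gap up to 100 bp, 8 did (44.4%), against 38.8% of 851 others. In the list of replicate 3 the wide gaps stood at 85% against 71%, and the narrow ones at 50% against 63.8%, so the sign at narrow gaps was not the same in every list.

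**Figure D2:**
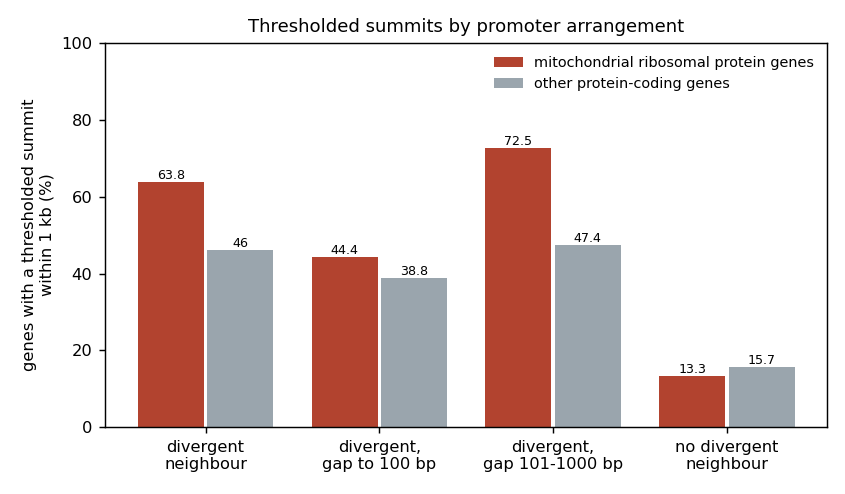
Share of genes (%, vertical axis) whose start site had a thresholded summit no more than 1 kb away, by the arrangement of the promoter, for mitochondrial ribosomal protein genes (left bar of each pair) and other protein-coding genes (right bar). The members reach 72.5% at divergent gaps of 101 to 1000 bp and 13.3% where no divergent neighbour was annotated.

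A peak at a divergent promoter cannot be given to 1 of its 2 genes. Of the 37 divergent members with a thresholded summit, 36 (97.3%) had it within 1 kb of the neighbour's start site too, against 91% of 2302 other divergent genes with one. In 27 of the 36 (75%) the summit lay between the 2 start sites, against 75.3% among the others. It was nearer to the member in 15 cases (41.7%), nearer to the neighbour in 20 and equally near in 1, at mRpS26 and CG13698. Among the 2094 other genes with a shared summit, it was nearer to the gene's own start site in 1046 (50%). No peak was shared by 2 mitochondrial ribosomal protein genes. The neighbours were of varied function. They included Cdk1, the mitotic kinase, beside mRpS7, Apc2, a regulator of Wingless signalling, beside mRpS24, and AGO1, the microRNA effector, beside mRpL53. Prosbeta2, a proteasome subunit, stood beside mRpL39, trr, a histone methyltransferase, beside mRpL16, and Snr1, a subunit of the Brahma remodelling complex, beside mRpL44. Mitofilin, which shapes the inner mitochondrial membrane, stood beside mRpL35, and Taz, the tafazzin gene of cardiolipin remodelling, beside mRpL18.

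**Figure D3:**
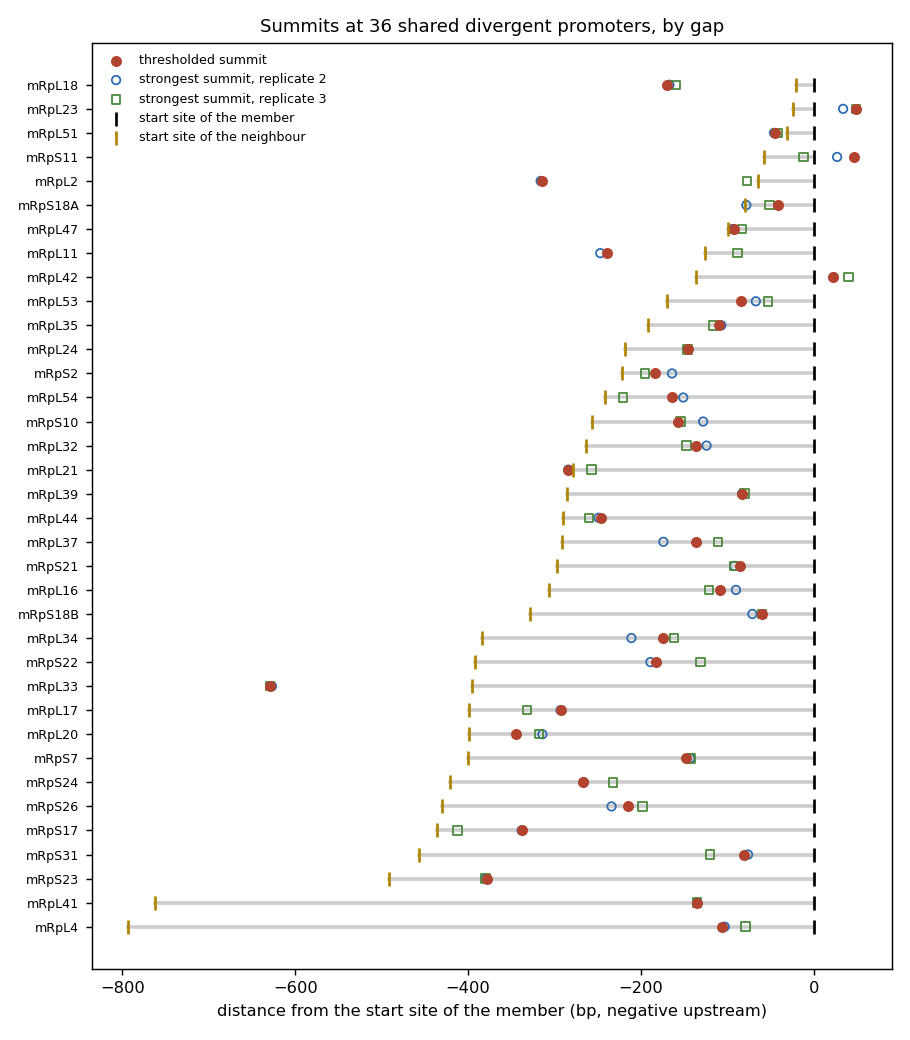
Position of summits (horizontal axis, bp from the start site of the member, negative upstream) at 36 divergent promoters with a thresholded summit that reaches both genes, 1 row each, ordered by gap. Grey bars span the 2 start sites, filled circles are thresholded summits, and open circles and squares are the strongest summits within 1 kb in replicates 2 and 3; 27 of the 36 thresholded summits lie on the grey bar. Summit distances are from the member's nearest start site. At mRpL23 the bar belongs to another of its start sites, drawn at the same point.

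The strongest 4 of these peaks ranked among the 22 strongest of the whole thresholded list. Signal is the authors' value per peak, on its own unstated scale in each list, so it is ranked within a list and never compared between lists. At mRpS10, a protein of the head of the small subunit, the signal was 1665 in replicate 2 (rank 5) and 1053 in replicate 3 (rank 7), and 2703 in the pooled alignments (rank 5). This peak lay 157 bp upstream of mRpS10 and 100 bp upstream of Art3, an arginine methyltransferase gene, at 3R 15229314 to 15229753. Both replicates put it among their first 7 peaks.

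The next was at mRpS23, a small-subunit protein with no bacterial counterpart. The signal there was 1483 in replicate 2 (rank 10) and 1064 in replicate 3 (rank 6), and 2532 in the pooled alignments. Its summit was 378 bp upstream of mRpS23 and 114 bp from the start of CenG1A, an ArfGAP gene, at 2L 13835258 to 13835669, so it was much nearer to the neighbour. At mRpL41, a large-subunit protein found only in mitochondria, the signal was 1498 in replicate 2 (rank 9) and 877 in replicate 3 (rank 12). That summit lay 135 bp upstream of mRpL41 and 627 bp from CG8079, at 2R 15217540 to 15217996.

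At mRpL23, which lines the exit of the ribosomal tunnel in its bacterial form, the signal was 1072 in replicate 2 (rank 22) and 680 in replicate 3 (rank 30). The summit lay 49 bp downstream of the start site, in the 5' UTR of mRpL23 itself, at 3L 2373422 to 2373812, with CG9004 starting 24 bp away on the other strand. It was 1 of only 3 among the 39 whose summit lay in the member's own 5' UTR, with mRpS11 and mRpL42. The next peak, at mRpS2, had a pooled signal of 762, against 1746 at mRpL23.

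The other 8 of the 12 strongest were lower in both replicates. At mRpS2, of the small subunit, the signal was 565 in replicate 2 (rank 142) and 210 in replicate 3 (rank 485), at 2L 4850398 to 4850727, 38 bp upstream of Mon1. At mRpL24 it was 404 in replicate 2 and 230 in replicate 3, between that gene and betaggt-I, a subunit of a prenyltransferase. At mRpL20 it was 249 in replicate 2 and 143 in replicate 3, 54 bp upstream of Icmt. Then followed mRpL34, beside Dg (dystroglycan), with 216 in replicate 2 and 149 in replicate 3. mRpL32, beside qless of coenzyme Q synthesis, had 206 and 114 in those replicates, and mRpL37 had 189 and 126. mRpS26 had 162 in replicate 2 and 118 in replicate 3. The twelfth, mRpS7, had 167 and 99.9, 148 bp upstream of its start and 252 bp from that of Cdk1. Every one of these 12 strongest had a divergent neighbour, and for each the summit lay within 1 kb of both start sites. This was not particular to them, since 37 of all 39 members with a thresholded summit had such a neighbour. In 36 of those the summit reached both start sites.

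Most of the 39 peaks were of middling strength. Among promoter-proximal peaks of the thresholded list, those with a summit within 1 kb of any protein-coding start site, the members' peaks had a median percentile of 43.3 (quartiles 20.1 and 69.4), against 54.3 for the strongest peaks of other genes. Above the 50th percentile were 18 of 39, against 1381 of 2526 such peaks of other genes. Above the 90th were 6 of 39, against 299 of 2526. In the whole lists, which reach down to weak peaks, the order was the other way. The median percentile was 78.8 in replicate 2, against 63.8 for other genes, and 75.9 in replicate 3, against 59.4. In replicate 2, 54 of 60 members with a summit were above the 50th percentile, against 3979 of 6264 strongest peaks of other genes. In replicate 3 it was 45 of 49, against 3244 of 5475. The thresholded list holds only the stronger part of the pooled one, with a lowest signal of 108 against 31, so the 2 percentiles are not on 1 scale.

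**Figure D4:**
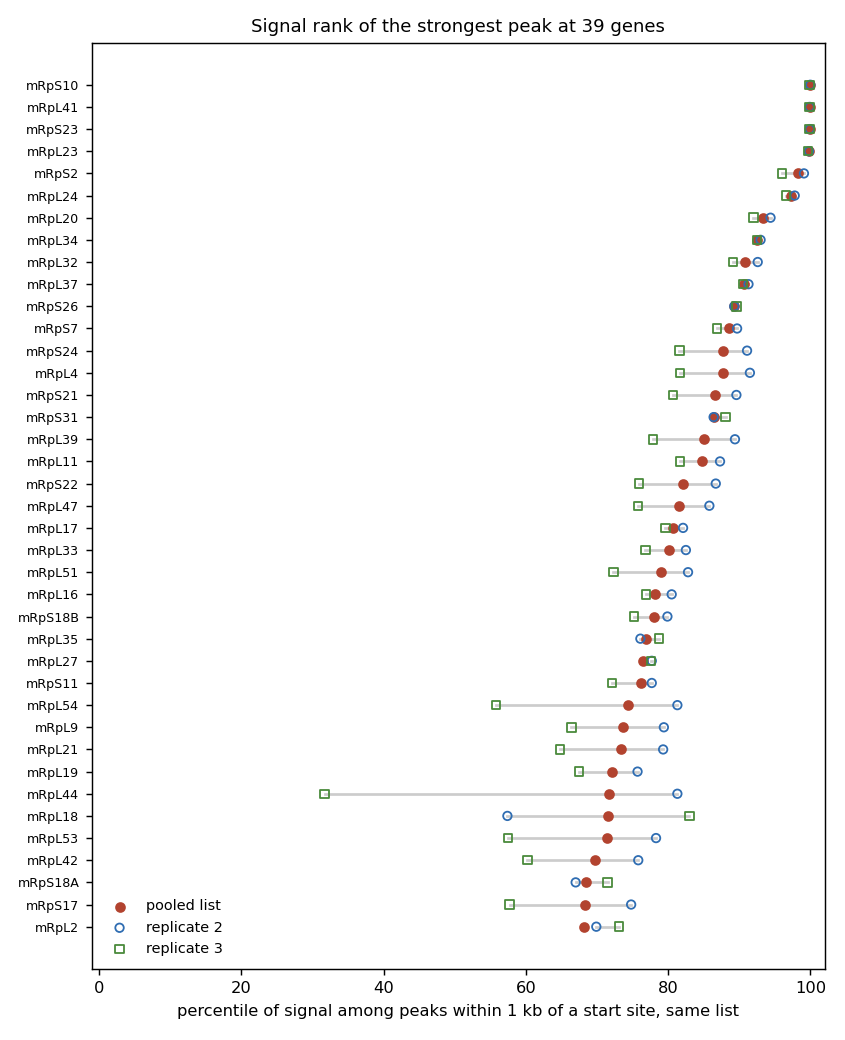
Percentile of the strongest signal within 1 kb (horizontal axis, among promoter-proximal peaks of the same list) for the 39 members with a thresholded summit, 1 row each, in the pooled list (filled circles) and in replicates 2 (open circles) and 3 (squares). The first 4 genes sit at 99.7 or above in all 3 lists, and mRpL44 has the widest distance between replicates, at 81.3 in replicate 2 and 31.7 in replicate 3.

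Across these 39 members the signals of the replicates were correlated with Spearman's rho of 0.805, against 0.887 across 3673 other genes with a thresholded summit and one in both replicates. The points share 2 libraries and often a peak, and this is a description only. The replicates were far apart at mRpL44 and mRpL18, chosen after their values were seen. At mRpL44 the strongest summit ranked 3464 in replicate 2 and 13897 in replicate 3. At mRpL18 the ranks were 9086 in replicate 2 and 2484 in replicate 3.

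Summits lay just upstream of the start site. The median distance of the strongest thresholded summit from the member's nearest start site was 146 bp, against 175 bp for other genes, and 124 bp and 135 bp with replicate 3 alone and replicate 2 alone. It was upstream in 35 of 39 members (89.7%), against 86.3% of other genes, and within 200 bp in 27 (69.2%), against 55%. By annotation 28 summits (71.8%) were intergenic, 8 were in a 5' UTR, 2 in an intron of the neighbour and 1 in a 3' UTR. Of the 8 in a 5' UTR, 5 were in that of the neighbour: HtrA2 beside mRpL11, norpA beside mRpL33, Uba4 beside mRpL51, rept beside mRpL21 and Taz beside mRpL18.

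Just inside the limit of 1 kb stood mRpL27 at 998 bp and mRpL33 at 629 bp, followed by mRpS23 (378 bp), mRpL20 (345 bp) and mRpS17 (338 bp). Just outside stood mRpL55 at 1417 bp, mRpL13 at 1447 bp, mRpL22 at 1593 bp, mRpL46 at 1908 bp and mRpL12 at 1936 bp. The summit at mRpL27 lay in its 3' UTR, and the other gene within 1 kb of it was RpL27A, which encodes a protein of the cytoplasmic ribosome. It was the only divergent member whose summit did not reach its divergent neighbour, CG15435. Within 500 bp, 37 members (50.7%) had a thresholded summit, against 23.1% of other genes, and within 2 kb 44 members (60.3%) did, against 32.3%.

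The members with no divergent neighbour and a thresholded summit were mRpL9 and mRpL19, both of the large subunit. At mRpL9 the signal was 95.1 in replicate 2 and 43.5 in replicate 3, with the summit 57 bp upstream. At mRpL19 it was 81.2 in replicate 2 and 44.6 in replicate 3, 24 bp upstream. Both were in the lower part of the thresholded list, at percentiles 19.3 and 14.5, and no other protein-coding gene started within 1 kb of either summit. Of the 39 members, 35 had 1 thresholded summit within 1 kb, and mRpS26, mRpL4, mRpL39 and mRpL2 had 2.

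A thresholded summit was missing at 34 members. For 16 of them the pooled list had a weaker one. Such weaker summits were common in other genes too. Of those 13872 genes, 10177 had no thresholded summit, while 7635 had a pooled one. The strongest of these were at mRpL36 (pooled signal 106), mRpS6 (106), mRpS30 (103), mRpL50 (101), mRpS29 (101) and mRpS16 (97.1), all under the lowest signal of the thresholded list, 108. The other members with a pooled summit alone were mRpL55, mRpS25, mRpL12, mRpL49, mRpS5, mRpL52, mRpS18C, mRpL22, mRpL28 and mRpL13. Among these 16, mRpS6, mRpL55, mRpL12, mRpL52, mRpS18C, mRpL22, mRpL28 and mRpL13 had no summit within 1 kb in replicate 3.

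No list had a summit within 1 kb for 12 members. These were mRpL1, mRpL14, mRpL15, mRpL30, mRpL38, mRpL40, mRpL46, mRpL48, mRpS28, mRpS34, mRpS35 and mRpS9. A further 6 had one in a replicate's list but not in the pooled one, namely mRpL3, mRpL10, mRpS14 and mRpS33 in replicate 2, mRpL45 in replicate 3 and mRpL43 in both. Over the 34 members the nearest thresholded summit was a median of 8318 bp away. The farthest, 1441735 bp, was for mRpS5. Absence from a list says only that no peak passed there, since the lists give no read counts and the depth is unknown.

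The intervals of the mRpL and mRpS genes overlapped. Genes with an mRpL symbol stood at 26 of 47 (55.3%, interval 41.2 to 68.6) and those with an mRpS symbol at 13 of 26 (50%, interval 32.1 to 67.9). The symbol alone was used, and the subunit that holds each protein was not checked. Proteins with a counterpart in bacteria stood at 27 of 45 (60%, interval 45.5 to 73), and those found only in mitochondrial ribosomes at 12 of 28 (42.9%, interval 26.5 to 60.9). With the strongest peaks of replicate 2 alone these were 57.8% and 60.7%, and with those of replicate 3 alone 57.8% and 32.1%, so the order of the 2 classes differed between replicates. By arm, 8 of 12 members had a thresholded summit on 2L (66.7%, against 25.6% of other genes there), 7 of 12 on 2R (58.3%, against 25.3%), 8 of 17 on 3L (47.1%, against 27.6%) and 14 of 21 on 3R (66.7%, against 28.8%). On X it was 2 of 11 (18.2%, interval 5.14 to 47.7), against 25.3% of other X genes. In the list of replicate 2, 8 of the 11 had a summit (72.7%, against 63.7% of other X genes). In that of replicate 3, 5 did (45.5%, against 52.4%). No member lay on chromosome 4.

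Lists of related genes are set beside the members as counts, with no test of a difference. Over all protein-coding genes other than the members, 26.6% had a thresholded summit. Of mitochondrial ribosomal proteins known under other names, only tko and bonsai were looked up. Neither had a thresholded summit, and 1 of the 2 had a pooled one. Translation and ribosome recycling factors stood at 2 of 9, with mEFTu1, the elongation factor, at signal 139 and mRF1, a release factor, at 111. Mitochondrial aminoacyl-tRNA synthetases stood at 5 of 15, with LeuRS-m strongest (730, 839 bp from its start site). Transcription and DNA maintenance genes stood at 5 of 11, with mtSSB, the single-stranded DNA binding protein, at 776. All 3 lists were short. Subunits of oxidative phosphorylation and related paralogs, among them the partners of the proteins that these ribosomes make, stood at 28 of 88 (31.8%). With a divergent neighbour it was 20 of 44, against 46% of other genes so arranged. Without one it was 8 of 44, against 15.7%. Proteasome subunits stood at 11 of 48 (22.9%), and cytoplasmic ribosomal proteins at 62 of 88 (70.5%). Both lists include paralogs. In the proteasome list these are symbols with R or T after the subunit number, such as Prosalpha1R, Prosalpha4T1 and Rpt6R. None of those had a thresholded summit, so 22.9% is not the share of the standard subunits alone. Among genes with no divergent neighbour, cytoplasmic ribosomal protein genes had a summit in 20 of 36 cases, against 2 of 15 for the mitochondrial ones. Of all other genes so arranged, 15.7% had one.

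Motif shares around the members' summits rest on 7 windows or fewer each, and several changed order with the width of the window. The 101 bp around the strongest summits of the 39 members had a median of 30.7% G and C, against 33.7% in 3039 other promoter-proximal thresholded peaks. A CGATA, the core that the boundary protein BEAF-32 binds, was present in 7 of 39 windows (17.9%, against 20.5%). With 100 bp to each side it was present in 46.2%, against 35.6%, so that order depended on the window, and with replicate 2 alone it was 11.6%, against 20.9%. A full DRE, TATCGATA, which contains that core, stood in 1, at mRpL19 (2.56%, against 2.96%), and with 100 bp to each side in 12.8%, against 6.19%, so here too the order turned. Sites of the kind bound by E(spl) proteins were rare: CACGTG in 1 window (2.56%, against 0.856%, and 7.69% against 2.2% with 100 bp to each side), CACGCG in 1 (2.56%, against 1.28%, and 2.56% against 3.06% with 100 bp) and the N-box CACNAG in 3 (7.69%, against 10.6%, and 11.4% against 11% with replicate 3 alone). The N-boxes were at mRpS23, mRpL20 and mRpS18B, and in the window of mRpL20 the N-box reads CTCGTG on the printed strand. The TATA box TATAAA was present in 7 (17.9%, against 20.8%) and the GAGA factor site GAGAG in 3 (7.69%, against 8.33%, and 2.86% against 9.07% with replicate 3 alone). The motif 1 core GGTCACAC, the ewg core GCGCATGC and the motif 7 core CATCNCTA were in none of the 39, against 1.12%, 0.165% and 3.52% of the other windows. Both strands were searched for all 10, and matches could overlap. A match is only a match of letters, and an absent one says nothing of the factor.

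Upstream of the start sites, CGATA was more frequent in members than in other genes, at like shares with and without a peak. In the 101 bp ending at the outermost start site, CGATA stood in 19 of 39 members with a thresholded summit (48.7%) and in 17 of 34 without one (50%), against 28.3% of the other genes. The DRE, which regulates many housekeeping and cell proliferation genes through the factor Dref, stood in 6 of 39 (15.4%) and 3 of 34 (8.82%), against 6.27%. GAGAG stood in 1 of 39 (2.56%) and 1 of 34 (2.94%), against 13.3%. These are shares with no test.

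**Figure D5:**
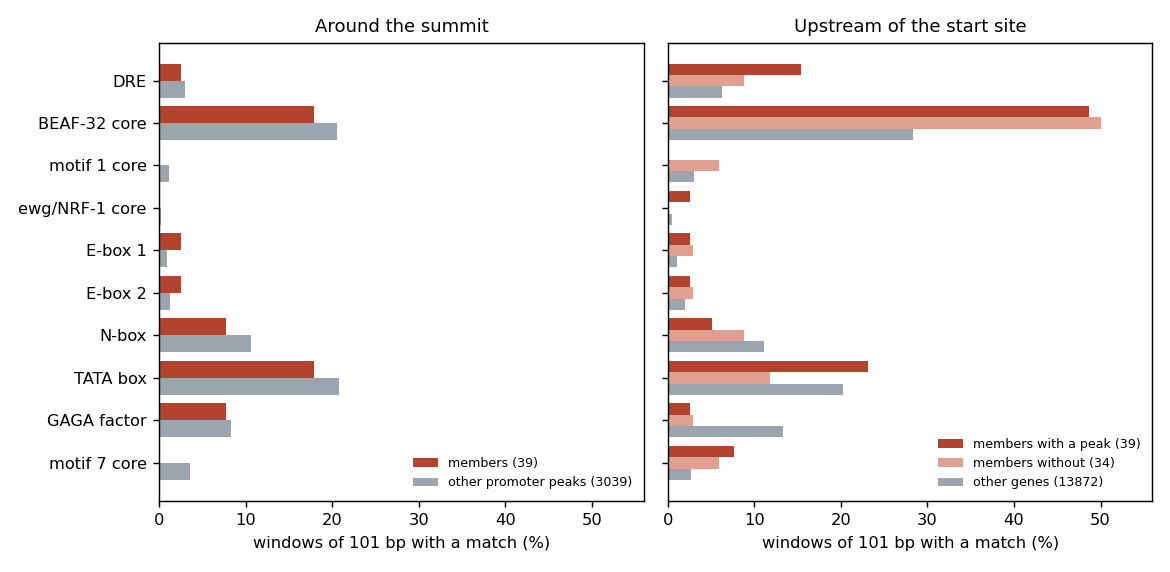
Share of 101 bp windows (%, horizontal axis) with a match to each of 10 motifs on either strand, around thresholded summits (left panel) and upstream of the outermost start site (right panel), for mitochondrial ribosomal protein genes and for other promoters. E-box 1 is CACGTG and E-box 2 is CACGCG; around summits the BEAF-32 core stands at 17.9% against 20.5%, and upstream of start sites at 48.7% and 50% against 28.3%.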

How the data were processed

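The samples were 2 biological replicates of 1 group, and the files were peak lists on dm6 with 1 peak per line. Per the file listings deposited with the samples, the authors made lists as input for the IDR procedure from each replicate and from both together, with a control file, and a thresholded list. Chromatin was sonicated to 200 to 800 bp, per the labels. Aligner and peak caller were not given in the sources used here. The deposited signal (the authors' value per peak) has no stated scale, so it was ranked within a list and not averaged, and the deposited summit offset, of no measurement unit, gave positions. Read depth is unknown. The dm3 lists were not used here.

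Start sites came from Ensembl release 115 on the same assembly, whose arm lengths hold all peaks. Summits within 1 kb of any start site of a gene were counted, with Python 3.11.15, pandas 2.3.3, numpy 2.4.6 and scipy 1.17.1, checked on simulated data. A neighbour was divergent when it started on the other strand from 50 bp downstream to 1 kb upstream. The rule for members uses names alone, but members and lists were chosen with earlier results of these data known, so no test was made. The named genes were the 12 strongest members, those just inside and outside 1 kb, those with no thresholded summit and their neighbours; others were named after their values were seen. The neighbour of 1 of them is not reported here. Mtfmt and Twinkle were not matched by symbol in the annotation. Intervals cover the number of genes only.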

Additional observations from a re-analysis of the deposited data

How the results depend on the processing

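Of 120 alternative values, 87 stayed within the set limits, 29 moved and 4 changed sign. With the 2850 strongest thresholded peaks, 19 members had a summit, against 16.1% of other genes, a difference of 9.97 points, and all 19 reached the divergent neighbour. The difference within divergent genes was then 3.89 points and the median percentile 48.3. With 1 replicate left out, the difference within divergent genes was 11.4 to 22.1 points. The whole list of replicate 2 gave 60 members, against 59.8% of other genes, the pooled list 55% of other genes, and that of replicate 3 52.3%, with a difference of 14.8 points. Giving each summit to the nearest start site left 18 members and 5.37 points. With 1 replicate left out, 35 to 43 members had a summit. Within 200 bp, 16% of other genes had one. The median distance was 136 bp in the pooled list and within 500 bp, and 124 to 135 bp with 1 replicate left out, and the pooled median percentile was 76.2. Outside divergent genes the difference changed sign, from -2.38 points to 1.51 with gaps up to 500 bp, to 2.52 with the outermost start site, and to 3.76 to 5.1 with 1 replicate left out. The cause was not tested. Around summits, CGATA stood at 46.2% with 100 bp to each side and at 5.26% with the 2850 strongest peaks. With 100 bp the DRE stood at 12.8%, CACGTG at 7.69% and TATAAA at 33.3%, and with 25 bp CACNAG stood at 2.56%, CACGCG at 0% and GAGAG at 0%. In the 2850 strongest, the DRE, CACGTG and CACGCG stood at 0%. With 1 replicate left out, the DRE ranged from 0% to 2.86%. Gaps over 100 bp alone, an alternative chosen after seeing the data, gave a difference of 25.1 points. No paired analysis was possible because there is 1 group. The lists hold no read counts, so a missing peak cannot be set against depth.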

Other observations

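The gene mRpL43 had a summit in both replicates, at rank 4227 of replicate 2 and 5174 of replicate 3, yet its nearest pooled summit was 10150 bp away. It was 1 of 48 members with a summit in both replicates, and 163 of 6412 other protein-coding genes (2.54%) were likewise without a pooled summit within 1 kb. Among 4460 summits matched between the strongest peaks of the replicates, 6 (0.135%) had no pooled summit within 1 kb. The gene mRpL10 had a summit at signal 94.6 in replicate 2 (rank 3887) and none in replicate 3, with the nearest pooled summit 2354 bp away.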
